A study of Mus musculus with 4 samples.

Results

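The genes described here are 41 transcripts of the lysosome and of the transcription factors that drive it. They were taken by symbol from a list of lysosomal enzymes and targets of the transcription factor TFEB. It holds transcription factors, membrane proteins, hydrolases, lipid carriers and proton pump subunits. All 41 symbols were among the 46095 of the count table, and all 41 passed the filter on low counts. Libraries of C57BL/6 colon from postnatal day 21 were compared between the wild type (WT, 2 libraries) and mice labelled Esr2-/- (Esr2-KO, 2 libraries), a label that stands for loss of the gene of estrogen receptor β. The 4 libraries are of total RNA depleted of ribosomal RNA from whole colon, and no treatment is given for either group. The labels do not say how the Esr2-/- allele was made, whether each library is 1 animal, or at which position of the colon and hour the tissue was taken. All p-values thus reflect only the scatter of these 4 libraries, which may be technical, and a difference of the groups in position or hour cannot be told apart from one in genotype. The series title places the work in colitis and autophagy, a process that ends in the lysosome.

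Lysosomes are acid compartments in which proteins, glycans and lipids delivered by endocytosis or autophagy are broken down. TFEB and its relatives TFE3 and MITF are held in the cytoplasm while the kinase complex mTORC1 is active at the lysosome, and enter the nucleus when nutrients are short. There they bind an E-box-like sequence near the start of many lysosomal genes, called the CLEAR element, and raise the genes together. In the colon, lysosomal transcripts come from epithelium as well as from macrophages and stroma, and in bulk RNA more cells of a type cannot be told apart from more RNA per cell.

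The E-box letters of the CLEAR element are shown first, since they are the letters that TFEB and its relatives read, and a minority of the members hold them near a start. RefSeq promoter windows (GRCm38.p6, 250 bases before to 50 after a transcript start) were found for 36 of the 41 members. The full 10-letter CLEAR palindrome, which extends the 8-letter form by 1 base on each side, was in none of the 36 and in 0.37% of 27025 genes with a window. The 8-letter form TCACGTGA was in 6 of 36 members (16.7%) against 1.12% of all genes. The 6-letter core CACGTG, which lies within both longer forms, was in 12 of 36 (33.3%) against 8.09%. Each of these motifs is its own reverse complement, so that both strands are read at once. Counted over windows, since some genes have several starts, TCACGTGA was in 6 of 44 member windows (13.6%) and in 0.974% of 32851. A match describes these letters and is not a measured binding site. The list was named for lysosomal enzymes and TFEB targets, so that these shares may follow from how its members were chosen. They are no independent result about the members. The stretches below run 5′ to 3′ on the strand of the gene, with the matched letters in capitals. They are the 6 members with the 8-letter form, the 2 of smallest p among those with the core alone, and Lamp1, chosen after the windows were read because it holds 4 copies of the core.
Mcoln1, chr8:3500462-3500491, plus strand: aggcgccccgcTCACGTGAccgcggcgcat
Atp6v0d1, chr8:105566050-105566079, minus strand: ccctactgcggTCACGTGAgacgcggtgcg
Atp6v1a, chr16:44139373-44139402, minus strand: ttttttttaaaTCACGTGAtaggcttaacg
Ctsa, chr2:164833757-164833786, plus strand: ctgTCACGTGAtgcagatgcTCACGTGAcc
Ctsd, chr7:142387908-142387937, minus strand: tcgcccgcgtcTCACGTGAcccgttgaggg
Gla, chrX:134601188-134601238, minus strand: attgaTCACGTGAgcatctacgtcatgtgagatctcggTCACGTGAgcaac
Gaa, chr11:119267811-119267840, plus strand: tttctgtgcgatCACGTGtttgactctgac
Ctsl, chr13:64370739-64370768, minus strand: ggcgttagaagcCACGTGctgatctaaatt
Lamp1, chr8:13159095-13159156, plus strand: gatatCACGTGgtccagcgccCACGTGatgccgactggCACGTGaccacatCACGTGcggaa

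In Mcoln1 the match began 46 bases before the start, in Ctsd 99, in Atp6v1a 132 and in Atp6v0d1 4. Gla held 2 copies, 228 and 195 bases before its start, and the copies of Lamp1 began 61, 45, 28 and 15 bases before its start. The copies of Ctsa lay beside an inner RefSeq start, 1 beginning 13 bases before it and 1 beginning 4 bases after it. The remaining matches were of the core alone, in Glb1, Lgmn and Naglu.

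**Figure D1:**
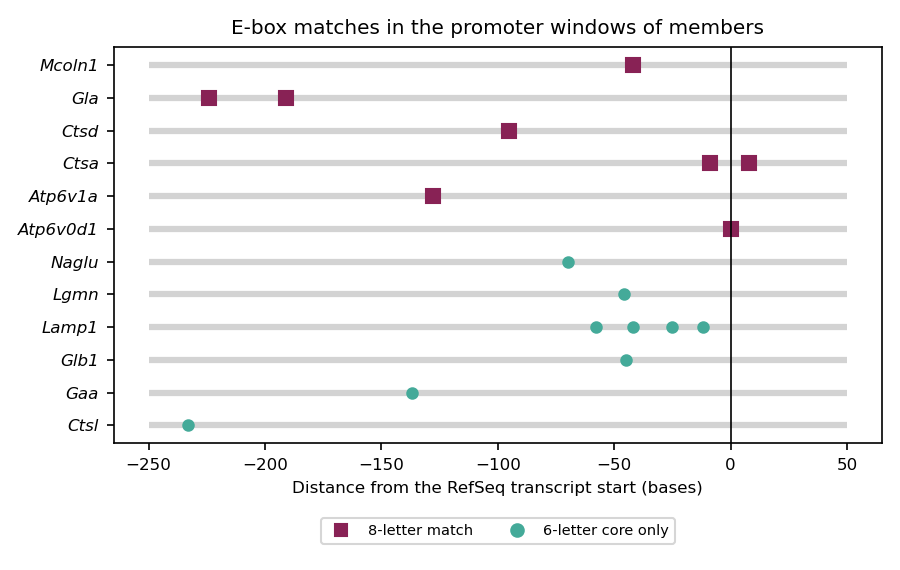
Position of E-box matches in the promoter windows of the 12 members that hold one, as distance in bases from the RefSeq transcript start (x axis), 1 row per gene. Squares mark the 8-letter form (6 members) and circles the 6-letter core alone; grey bars are the windows from 250 bases before to 50 after the start, and Lamp1 has 4 copies.

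The libraries held 30826790 to 33709643 counts and were scaled by TMM, a factor that removes differences in composition, of 0.856 to 1.08. Levels are given in CPM, each gene's count relative to these scaled totals. Esr2 was counted 21 and 13 times in the WT libraries and 6 and 16 times in those of Esr2-KO (log2 fold change -0.32 ± 0.77, SE), too few to check the genotype, and the level of Esr2-KO 2 was the highest of the 4 libraries. No source used here gives the deleted part of the gene. Esr2-KO 2 stood apart, with 20.2% of its counts in genes of the exocrine pancreas, where WT 1 had 0.258%, WT 2 0.292% and Esr2-KO 1 0.405%. All 15 markers on a list of colon epithelium were tested, with a median log2 fold change of 0.12, 10 positive and 5 negative. Both Esr2-KO libraries lay above both WT libraries for 7 and below them for 5, where all genes gave 27% and 27.7%. At an edgeR adjusted p under 0.05, 1.3% of all genes rose and 1.39% fell. None of the 15 rose and 2 fell, the intestinal transcription factor gene Cdx2 (-2.03 ± 0.34) and Car1 (-2.11 ± 0.39), with edgeR adjusted p of 0.0373 and 0.0469.

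None of the 41 lysosomal members passed an adjusted p of 0.05, in either direction, in the quasi-likelihood test of edgeR, adjusted after Benjamini and Hochberg over 17169 genes. Of all genes tested 2.69% passed (1.3% higher and 1.39% lower in Esr2-KO). At an unadjusted p under 0.05 stood 11 of the 41 members, 9 higher and 2 lower, which is 26.8% against 20.6% of all genes (9.69% higher and 10.9% lower). Both Esr2-KO libraries lay above both WT libraries for 20 of the 41 members (48.8%) and below them for 8 (19.5%), where all genes gave 27% and 27.7%. The median log2 fold change of the members was 0.08 and that of all genes tested -0.0031, and 27 members were positive and 14 negative. Taken per library as log2 level over the WT mean, the members' median was highest for Esr2-KO 2 (0.14). WT 2 came next (0.059), above Esr2-KO 1 (0.043), and WT 1 was lowest (-0.059). By this median the groups thus overlapped. The members ran from -0.65 for Gla to 0.79 for Npc2, and none reached a 2-fold difference, as 10.9% of all genes did. Of all genes tested, 28.0% were less abundant than Mitf, the least abundant member.

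Other tests of the same counts called some members. DESeq2's Wald test called 8 of the 41 (19.5%, against 10.2% of its genes), namely Npc2, Tfeb, Ctsk, Ctss, Manba and Man2b1 higher and Scarb2 and Gla lower. Without the low-count filter, edgeR called the same genes except Ctss, 7 in all (7.51% of all genes). limma-voom called Npc2 alone (3.53% of all genes). Leaving out Esr2-KO 1 leaves Esr2-KO 2, with its pancreatic transcripts, as the lone library of its group. The log2 fold changes of Npc2, Tfeb, Manba and Gla were then 0.79, 0.78, 0.73 and -0.75. With all 4 libraries and without the pancreatic genes, edgeR called no member. That omission takes out the listed genes alone, and any lysosomal transcripts from pancreatic tissue would remain in Esr2-KO 2. Their part in the members' values was not tested.

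**Figure D2:**
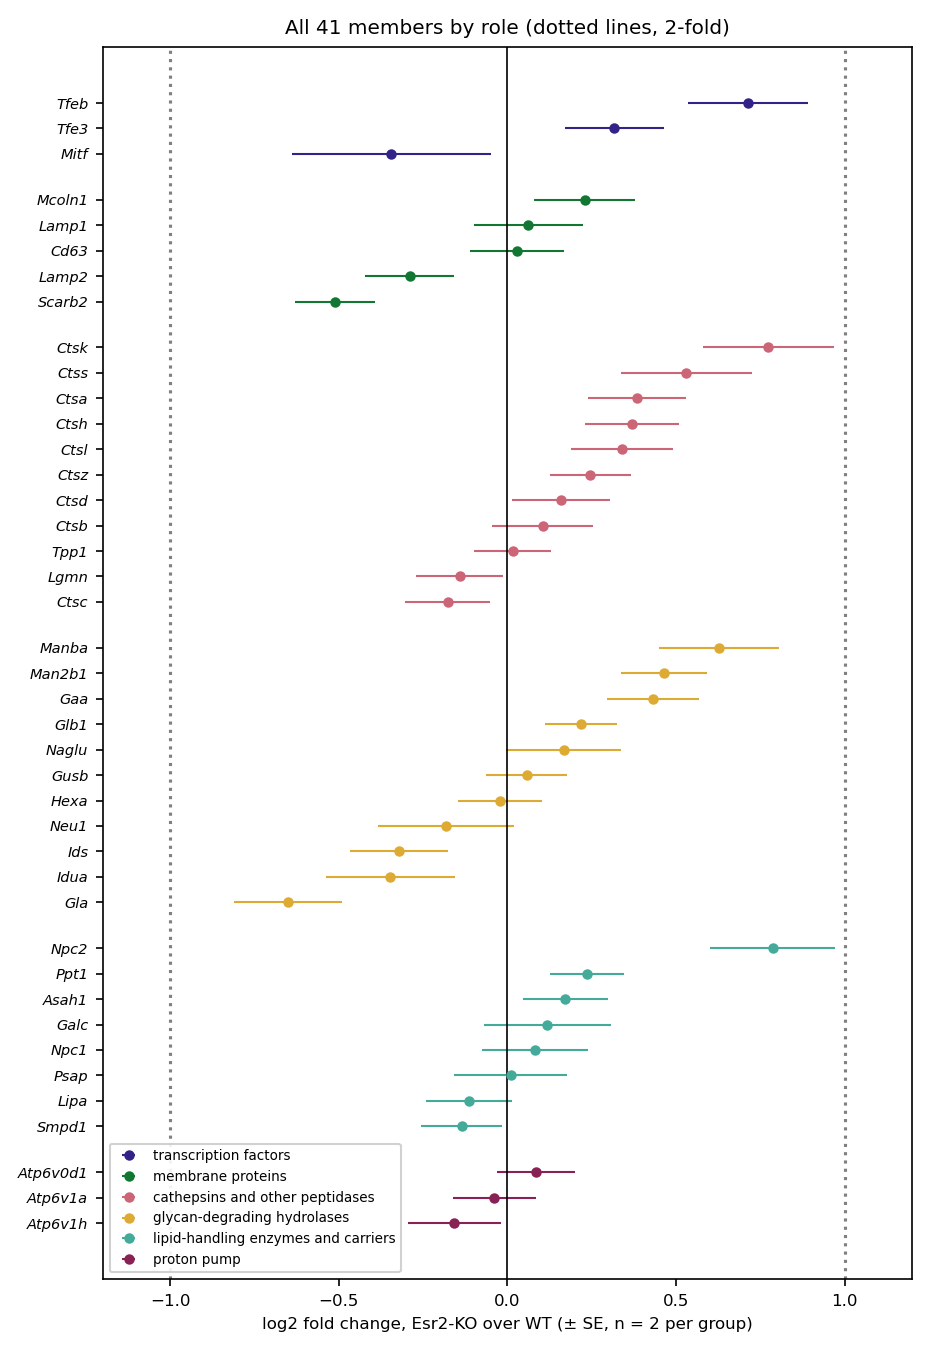
Log2 fold change of Esr2-KO over WT (x axis, with SE, n = 2 libraries per group) for each of the 41 members, grouped and coloured by role. All points lie between the dotted lines that mark a 2-fold difference, from -0.65 for Gla to 0.79 for Npc2.

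Among the 3 transcription factor genes, Tfeb was the one with the lowest p. Tfeb, the main driver of lysosomal genes (chromosome 17, 47737037 to 47792416), stood at 12.8 and 16.5 CPM in the WT libraries against 23.0 and 24.997 CPM in those of Esr2-KO. Both Esr2-KO libraries were above both WT libraries, a log2 fold change of 0.71 ± 0.18 (SE, n = 2 per group) with an edgeR adjusted p of 0.0905. It was 0.66 without Esr2-KO 2 and ranged from 0.54 without WT 1 to 0.93 without WT 2. Tfe3, which shares the nutrient control of TFEB, stood at 30.3 and 33.1 CPM in the WT libraries against 35.6 and 43.5 CPM in those of Esr2-KO. Its groups did not overlap either, at 0.32 ± 0.15 (edgeR adjusted p = 0.286), and the value was 0.17 without Esr2-KO 2. Mitf, better known for melanocytes, mast cells and osteoclasts, was the least abundant member, at 4.82 and 3.56 CPM in the WT libraries against 3.45 and 3.15 CPM in those of Esr2-KO. It lay lower in Esr2-KO by a margin close to the spread within WT, at -0.34 ± 0.30 (edgeR adjusted p = 0.552), at -0.11 without WT 1 and at -0.53 without WT 2. Per kilobase of exon, where genes can be compared, mean levels over the 4 libraries were 3.84 CPM for Tfe3, 3.41 for Tfeb and 0.60 for Mitf.

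Levels of the other members covered a wide range, from below to far above those of Tfeb and Tfe3. On the same scale of CPM per kilobase of exon, the most abundant members were the elastin- and antigen-processing peptidase gene Ctss (270.2), the membrane glycoprotein gene Lamp1 (222), Psap, the precursor of the saposins (194), Ctsd (145) and Ctsz (125). Lowest after Mitf were Galc (0.70), Idua (2.44) and Npc1 (2.79). Exon lengths are the union of the exons that GENCODE lists for the gene, so that levels of genes with long alternative exons, such as Galc with 14879 bases, come out low. Counts of single members ran from 83 for Mitf in Esr2-KO 2 to 20980 for Lamp1 in WT 2. Summed over the 41 members, the level was 5089 and 5554 CPM in the WT libraries against 5867 and 5948 CPM in those of Esr2-KO. As a share of all counts, without factors, the members held 0.548% and 0.580% in WT 1 and WT 2, 0.608% in Esr2-KO 1 and 0.509% in Esr2-KO 2, the library with pancreatic transcripts.

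The 5 membrane proteins split. Scarb2 encodes LIMP-2, which carries glucocerebrosidase to the lysosome, and stood at 158 and 175 CPM in the WT libraries against 119 and 114 CPM in those of Esr2-KO. These groups lay apart, with the Esr2-KO libraries close to each other, at -0.51 ± 0.12 and an edgeR adjusted p of 0.0791. Lamp2, a glycoprotein of the lysosomal membrane that serves chaperone-mediated autophagy, stood at 203 and 228 CPM in the WT libraries against 186 and 167 CPM in those of Esr2-KO (-0.29 ± 0.13, edgeR adjusted p = 0.279). Mcoln1, the calcium channel TRPML1 whose opening activates TFEB, stood at 26.7 and 31.9 CPM in the WT libraries against 32.3 and 36.4 CPM in those of Esr2-KO (0.23 ± 0.15, edgeR adjusted p = 0.433). Its Esr2-KO 1 value lay just above WT 2, and the log2 fold change was 0.11 without WT 1, 0.38 without WT 2 and 0.15 without Esr2-KO 2. That of Lamp2 was -0.19 without WT 2. Lamp1 and the tetraspanin gene Cd63 were nearly level, at 0.06 ± 0.16 and 0.03 ± 0.14. Cd63 kept within 358 to 371 CPM in the 4 libraries.

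None of the 11 cathepsins and other peptidases passed in edgeR. At an unadjusted p under 0.05 in edgeR, where all genes gave 9.69% higher and 10.9% lower, 4 were higher and 0 lower. Their median was 0.25, 9 of 11 were positive (6 of 11 on library totals), and 8 of 11 had both Esr2-KO libraries above both WT libraries, as 27% of all genes did. Their summed level was 1929 and 2078 CPM in the WT libraries against 2309 and 2395 CPM in those of Esr2-KO. Ctsk, the collagen-cleaving cathepsin of osteoclasts and fibroblasts, stood at 9.004 and 11.3 CPM in the WT libraries against 18.4 and 16.3 CPM in those of Esr2-KO. That is 0.77 ± 0.19 with an edgeR adjusted p of 0.0919, and 0.86 without Esr2-KO 2. Ctss lies 17398 bases downstream of Ctsk on chromosome 3 and encodes the protease that trims the invariant chain of MHC class II. It stood at 254 and 347 CPM in the WT libraries against 463 and 404 CPM in those of Esr2-KO (0.53 ± 0.19, edgeR adjusted p = 0.193), and the gap between the WT libraries was larger than that between WT 2 and Esr2-KO 2. The value of Ctss was 0.32 without WT 1 and 0.79 without WT 2. Ctsh, an aminopeptidase, stood at 99.6 and 122 CPM in the WT libraries against 149 and 138 CPM in those of Esr2-KO (0.37 ± 0.14, edgeR adjusted p = 0.203), and the value of Ctsh was 0.23 without WT 1.

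Smaller positive values belonged to Ctsa, the protective protein of galactosidase and neuraminidase (0.38 ± 0.15), Ctsl (0.34 ± 0.15), Ctsz (0.25 ± 0.12), the aspartic protease gene Ctsd (0.16 ± 0.14) and Ctsb (0.10 ± 0.15). The edgeR adjusted p of these 5 ran from 0.206 to 0.737. Without Esr2-KO 2 the values of Ctsa, Ctsl and Ctsd were 0.25, 0.20 and 0.079. Tpp1, a tripeptidyl peptidase, was at 0.02 ± 0.11, and the negative members were Lgmn, an asparaginyl endopeptidase (-0.14 ± 0.13), and Ctsc, which activates granzymes (-0.18 ± 0.13). Several of these genes share exon bases with another gene in GENCODE vM21. For Ctsd 34.4% of the exon bases lie under a gene model on the same strand, and for Ctsl 26.8% lie under an antisense transcript. Whether the counting used strand is not given, so that the values of both are uncertain.

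Glycan-degrading hydrolases went both ways, with 6 of 11 positive, 5 negative and a median of 0.06. Gla, the α-galactosidase that is lost in Fabry disease (X chromosome, 134588169 to 134601005), holds 2 copies of the 8-letter E-box shown above in its promoter window. It was the most negative of all 41 members. It stood at 26.5 and 22.9 CPM in the WT libraries against 16.8 and 14.6 CPM in those of Esr2-KO, at -0.65 ± 0.16 with an edgeR adjusted p of 0.0880. In Gla, no Esr2-KO library reached a WT library, and the value was -0.55 without Esr2-KO 2. Both mannosidases among the members were on the positive side. Manba, the β-mannosidase, stood at 16.5 and 21.5 CPM in the WT libraries against 27.2 and 31.5 CPM in those of Esr2-KO (0.63 ± 0.18, edgeR adjusted p = 0.117). Man2b1, the α-mannosidase, stood at 51.7 and 59.2 CPM in the WT libraries against 71.3 and 81.7 CPM in those of Esr2-KO (0.46 ± 0.13, edgeR adjusted p = 0.113). For both the groups lay apart and Esr2-KO 2 was the highest library.

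Gaa, the acid α-glucosidase that digests glycogen, was at 0.43 ± 0.14 (edgeR adjusted p = 0.145) and the β-galactosidase gene Glb1 at 0.22 ± 0.11. Positive as well were Naglu (0.17 ± 0.17) and the β-glucuronidase gene Gusb (0.06 ± 0.12), with overlapping groups. The iduronidase gene Idua was at -0.35 ± 0.19 (edgeR adjusted p = 0.356) and the iduronate sulfatase gene Ids at -0.32 ± 0.15 (edgeR adjusted p = 0.276), both with groups that lay apart. Ids was at -0.16 without Esr2-KO 2 and at -0.49 without Esr2-KO 1. The sialidase gene Neu1 was at -0.18 ± 0.20 and overlapped. Hexa, the α subunit of β-hexosaminidase, was at -0.02 ± 0.12, with overlapping groups.

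Npc2 had the largest value among enzymes and carriers of lipids. NPC2 binds cholesterol in the lysosomal lumen and hands it to NPC1 in the membrane. Npc2 (chromosome 12, 84754559 to 84773112) stood at 252 and 338 CPM in the WT libraries against 508 and 510.5 CPM in those of Esr2-KO. Its Esr2-KO libraries were alike and above both WT libraries, at 0.79 ± 0.18 with an edgeR adjusted p of 0.0801. The value was the same to 2 decimals without Esr2-KO 1 and without Esr2-KO 2, and it ran from 0.59 without WT 1 to 1.03 without WT 2. For Npc1 the groups overlapped (0.08 ± 0.16).

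Ppt1, the thioesterase that removes palmitate from proteins, stood at 58.2 and 63.2 CPM in the WT libraries against 73.7 and 69.3 CPM in those of Esr2-KO (0.24 ± 0.11, edgeR adjusted p = 0.289). Asah1, the acid ceramidase, stood at 141 and 145 CPM in the WT libraries against 172 and 149.8 CPM in those of Esr2-KO (0.17 ± 0.13, edgeR adjusted p = 0.487). In both the groups did not overlap, by a small margin for Asah1, whose value was 0.070 without Esr2-KO 1 and 0.28 without Esr2-KO 2. The galactosylceramidase gene Galc (0.12 ± 0.19), Psap (0.01 ± 0.17) and the acid lipase gene Lipa (-0.11 ± 0.13) had overlapping groups. The acid sphingomyelinase gene Smpd1 was at -0.14 ± 0.12.

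The 3 subunits of the V-ATPase, the pump that acidifies the lysosome, had overlapping groups throughout. Atp6v1a, the catalytic subunit, stood at 86.8 and 75.9 CPM in the WT libraries against 83.6 and 74.8 CPM in those of Esr2-KO (-0.04 ± 0.12, edgeR adjusted p = 0.891). Atp6v0d1 of the membrane sector stood at 114 and 108 CPM in the WT libraries against 112 and 122 CPM in those of Esr2-KO (0.08 ± 0.11, edgeR adjusted p = 0.721). Atp6v1h, a regulatory subunit, stood at 53.9 and 52.5 CPM in the WT libraries against 52.8 and 42.6 CPM in those of Esr2-KO (-0.16 ± 0.14, edgeR adjusted p = 0.562). The spread within a group was as wide as the distance between the groups in each of the 3 genes.

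**Figure D3:**
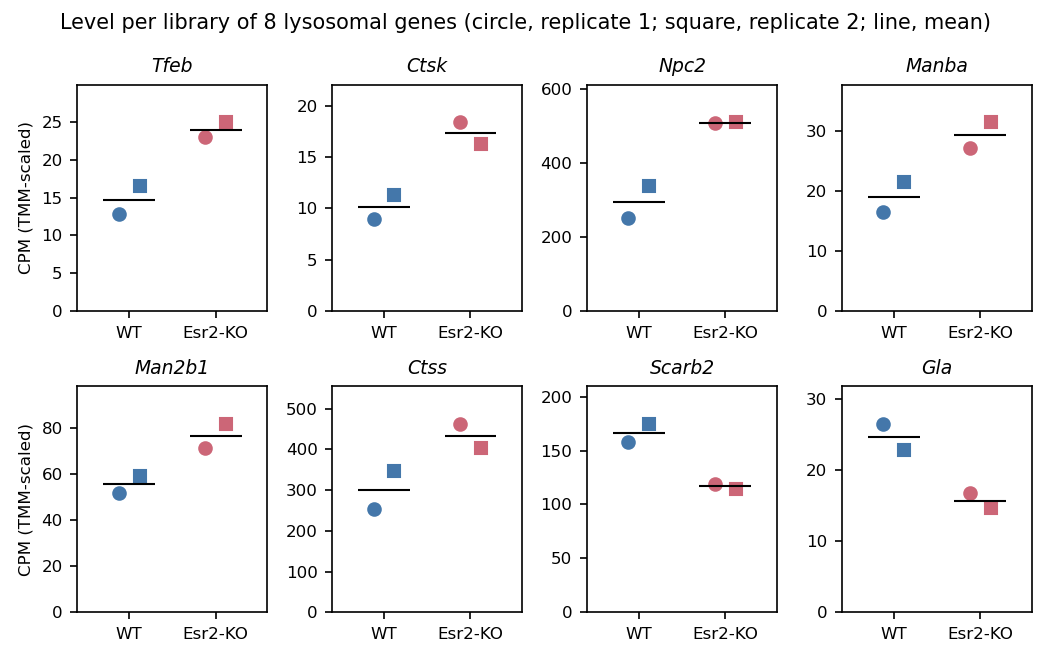
Level in CPM on TMM-scaled totals (y axis, from 0) in each library for the 8 members that DESeq2 called, with WT in blue and Esr2-KO in red, replicate 1 as circle and replicate 2 as square, and the group mean as a line. In each panel the groups do not overlap, and none of the 8 passed edgeR's adjusted p of 0.05.

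Read against the E-box matches above, the 12 members with the core had a median log2 fold change of 0.16 and the 24 members with a window but no core 0.02. The 6 members with the 8-letter form had a median of 0.12 and ran from -0.65 for Gla to 0.38 for Ctsa. None of the 6 members furthest to the positive side (Npc2, Ctsk, Tfeb, Manba, Ctss and Man2b1) held the core in its window. These are descriptions of small groups and were not tested.

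Of 126 tested genes on 5 further lists of the pathway, 4 rose and none fell, with a median of 0.14. That is 3.17% of them, against 2.69% of all genes. Of those that rose, Slc36a1, Ctse and Ggh are described here. The count was 4 as well without Esr2-KO 2, and it was 12 higher and 4 lower without Esr2-KO 1, where 10% of all genes were called. Slc36a1, a proton-coupled amino acid transporter of lysosomes and of the brush border (chromosome 11, 55204322 to 55236330), stood at 23.2 and 45.4 CPM in the WT libraries against 162 and 188 CPM in those of Esr2-KO. That is 2.35 ± 0.30 with an edgeR adjusted p of 0.0223. Ctse, an aspartic protease of endosomes, stood at 14.8 and 29.0 CPM in the WT libraries against 87.5 and 90.8 CPM in those of Esr2-KO (2.03 ± 0.29, edgeR adjusted p = 0.0274). For both, the Esr2-KO libraries were above the WT libraries by more than the spread within either group.

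Ggh, the γ-glutamyl hydrolase that shortens folate chains in lysosomes, stood at 203 and 319 CPM in the WT libraries against 687 and 594 CPM in those of Esr2-KO (1.30 ± 0.24, edgeR adjusted p = 0.0481). The call of Ggh in edgeR ended without WT 1 (1.01, adjusted p = 0.118), with the replicate number as a block (0.0655), on library totals (0.0723) and with a filter of 1 CPM in 2 libraries (0.0525).

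**Figure D4:**
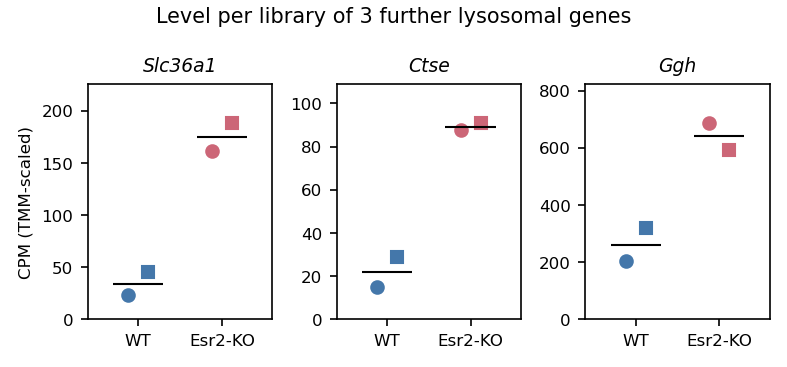
Level in CPM on TMM-scaled totals (y axis, from 0) of Slc36a1, Ctse and Ggh, which passed the threshold, in each library. Colours, symbols and lines are as in the plot of 8 members by library, and in each panel both Esr2-KO values lie above both WT values.

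By role, 3 of 36 further hydrolases and their helpers rose (median 0.16) and 1 of 29 membrane proteins and transporters (median 0.04). No gene passed among 17 further V-ATPase subunits (median 0.05), where 2 were higher and 3 lower at an unadjusted p under 0.05 by edgeR. Their smallest p values belonged to Atp6v0e2 (25.4 and 28.0 against 41.5 and 54.2 CPM, 0.84 ± 0.16, edgeR adjusted p = 0.0533) and to Atp6v0a4, a subunit of acid-secreting epithelia (1.57 and 1.24 against 0.351 and 0.341 CPM, -2.01 ± 0.51, edgeR adjusted p = 0.0922). Atp6v0e2 passed in edgeR without Esr2-KO 1 (adjusted p = 0.00286), without the low-count filter (0.000643) and without pancreatic genes (0.0488), and in DESeq2 (0.000468). None of 23 genes that sort enzymes to the lysosome passed (median 0.18, and 4 higher and 1 lower at an unadjusted p under 0.05 by edgeR). Sorl1, a sorting receptor (0.57 ± 0.12, edgeR adjusted p = 0.0645), and Gnptab, which makes the mannose 6-phosphate tag (0.48 ± 0.13, edgeR adjusted p = 0.116), led them. Of 21 genes that control the TFEB family none passed (median 0.16, and 2 higher and 2 lower at an unadjusted p under 0.05 by edgeR). Ppargc1a (0.68 ± 0.15, edgeR adjusted p = 0.0718) and Gpnmb (1.25 ± 0.35, edgeR adjusted p = 0.116) came closest. All genes tested gave 9.69% higher and 10.9% lower at an unadjusted p under 0.05 by edgeR. DESeq2 called 13 of these pathway genes higher and 2 lower, where it called 10.2% of all its genes. limma-voom called 4 higher and 0 lower, where it called 3.53% of all genes.

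**Figure D5:**
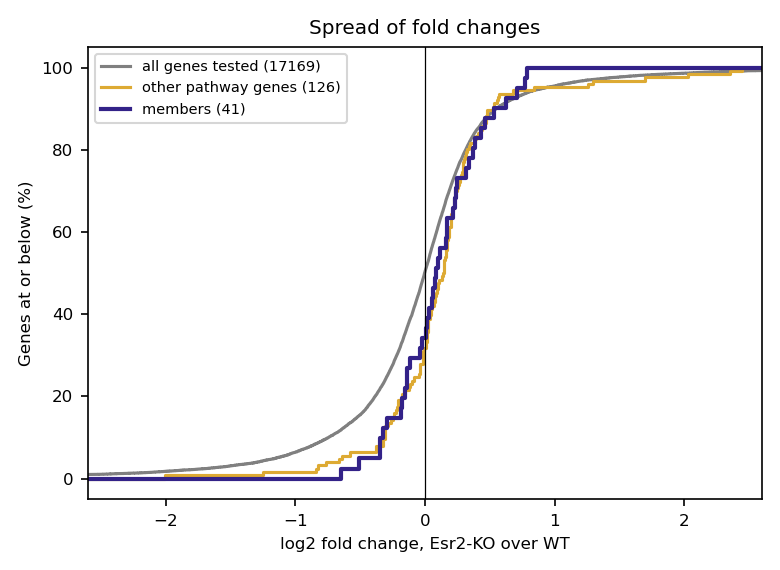
Cumulative share of genes (y axis, percent) at or below a log2 fold change of Esr2-KO over WT (x axis) for the 41 members, the 126 other pathway genes and all 17169 genes tested. The members' curve crosses 50% at 0.08 and spans -0.65 to 0.79, while 10.9% of all genes lie beyond a 2-fold difference.

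Markers of cells rich in lysosomes were read beside these values, and their part in them was not tested. Of all genes, 9.69% were higher and 10.9% lower at an unadjusted p under 0.05 by edgeR. Of 20 macrophage markers 18 were tested, none passed, 3 were higher and 1 lower at that threshold, and the median was -0.07. Their summed level was 853 and 893 CPM in the WT libraries against 878 and 792 CPM in those of Esr2-KO, with overlapping groups, and Aif1 had no count in any library. The lysosomal glycoprotein gene Cd68 (11.6 and 11.7 against 16.1 and 18.0 CPM, 0.55 ± 0.17, edgeR adjusted p = 0.138) and the scavenger receptor gene Cd163 (8.26 and 8.28 against 12.4 and 11.2 CPM, 0.51 ± 0.19, edgeR adjusted p = 0.196) led this list by p. Adgre1, which encodes F4/80, was at -0.46 ± 0.18.

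Among 12 genes of dendritic and B cells none passed, with a median of 0.63. At an unadjusted p under 0.05 by edgeR, where all genes gave 9.69% higher and 10.9% lower, 4 were higher and 0 lower. Of these 12 genes 5 differed by 2-fold or more (41.7%, against 10.9% of all genes), and Cd22, an inhibitory receptor gene of B cells, was at 1.57 ± 0.60. The summed level of the 12 was 301 and 428 CPM in the WT libraries against 421 and 297 CPM in those of Esr2-KO, with overlapping groups. Counts of single genes on this list ran from 3 to 12917, so that the sum mainly reflects the most abundant. Of 6 genes of the lysosome-rich enterocytes of the suckling gut none passed (median -0.73, 0 higher and 2 lower at an unadjusted p under 0.05 by edgeR). Amn and Cubn, the partners of the receptor that takes up proteins in these cells, stood at 3.001 and 6.44 against 0.965 and 0.531 CPM and at 0.991 and 5.40 against 0.965 and 0.721 CPM. Their log2 fold changes were -2.63 ± 0.52 (edgeR adjusted p = 0.0533) and -1.91 ± 0.77 (edgeR adjusted p = 0.230). The summed level of that list, carried by Dab2 and Fcgrt, was 110.4 and 137 CPM in the WT libraries against 132 and 151 CPM in those of Esr2-KO.

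Of 10 markers of smooth muscle and stroma none passed (median 0.03). At an unadjusted p under 0.05 by edgeR, where all genes gave 9.69% higher and 10.9% lower, 0 were higher and 1 lower. Their summed level was 7317 and 6166 CPM in the WT libraries against 6479 and 7671 CPM in those of Esr2-KO, and the smallest p values belonged to Pdgfra (-0.29 ± 0.11) and Col1a1 (0.30 ± 0.16). Beside Ctsk, 3 of 6 osteoclast markers could be tested, none passed, and 1 was higher at an unadjusted p under 0.05 by edgeR, Acp5 (0.32 ± 0.13), with Nfatc1 at 0.05 ± 0.16 and Calcr without a count in any library. Their summed level was 231 and 249 CPM in the WT libraries against 284 and 277 CPM in those of Esr2-KO. That sum covers the 3 tested genes alone, and Acp5 is counted among the further lysosomal hydrolases as well. Of 25 tested genes of the exocrine pancreas Spink1 rose (1.30 ± 0.16, edgeR adjusted p = 0.0204), while 24 were higher and 0 lower at an unadjusted p under 0.05 by edgeR. Against 27% of all genes, both Esr2-KO libraries lay above both WT libraries for 23 of the 25 pancreatic genes. The median log2 fold change of these genes was 11.3, and their summed level was 2396 and 2794 CPM in WT, 3910 CPM in Esr2-KO 1 and 236365 CPM in Esr2-KO 2.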

How the data were processed

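Deposited counts per gene symbol of 4 colon libraries were used as the authors deposited them. They are whole numbers without normalization, as the values show. HISAT2 and the build mm10 are named in the submitters' processing notes. No source used here gives the counting program, the annotation or the use of strand. Genes were kept by filterByExpr (minimum count 10, minimum total 15), scaled by TMM and fitted in edgeR 4.0.16 under R 4.3.3 (glmQLFit, glmQLFTest, two-sided), with 2 residual degrees of freedom and a Benjamini-Hochberg adjusted p under 0.05 over 17169 genes. Standard errors come from the F statistic. The procedure was also run on simulated counts, drawn with the same dispersion for all genes and with no library set apart by pancreatic transcripts. Its behaviour under those features of the real data was thus not tested, and no result above rests on that run. Alternatives were other scalings and filters, DESeq2 1.42.0, limma-voom (limma 3.58.1), a replicate block, omission of each library in turn, and omission of pancreatic genes. Members, lists and tests were chosen with earlier results of these data known. Genes given with values are all 41 members, in full the 3 of smallest p per role, and of each other list those past the threshold or else the 2 of smallest p. Some genes that this rule names on the other lists are counted there but not reported here. Adgre1, Dab2, Fcgrt, Aif1 and Calcr were named after their values were seen. Positions and promoters are from RefSeq (GRCm38.p6), exon lengths from GENCODE vM21, both of the mm10 build.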

Additional observations from a re-analysis of the deposited data

How the results depend on the processing

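Whether the replicate number pairs the libraries is not known. Deviations of WT 1 and Esr2-KO 1 from their group means had a correlation of -0.06 across 17169 genes. With 2 libraries per group, and with pancreatic transcripts setting Esr2-KO 2 apart, this value cannot settle it. With the replicate number as a block, 490 genes were called in place of 462, no member, 3 other pathway genes higher and 0 lower, and the members' median was 0.08. Library totals without factors gave 695 genes and a members' median of -0.086, against -0.17 for all genes. There the sign turned for Lamp1 (-0.10), Cd63 (-0.14), Ctsb (-0.064), Ctsd (-0.013), Tpp1 (-0.15), Gusb (-0.10), Naglu (-0.0099), Galc (-0.054), Npc1 (-0.093), Psap (-0.16) and Atp6v0d1 (-0.086), and read against the median of all genes it turned for 0 of the 41. Without a low-count filter 1916 genes (7.51%) were called, with 5 members higher and 2 lower and 14 other pathway genes higher and 4 lower. DESeq2 called 1693 genes (10.2%), with 6 members higher and 2 lower and 13 other pathway genes higher and 2 lower. limma-voom called 1 member higher. Without pancreatic genes 593 genes were called, with DESeq2's size factors in edgeR 460 and with the 1 CPM filter 457, with 0 members each and 5, 4 and 3 other pathway genes higher. The cause of these differences was not tested.

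Leaving out 1 library gave 165 (without WT 1) to 1804 genes (without Esr2-KO 1), 0 to 3 members higher, 0 to 1 lower, 3 to 12 other pathway genes higher, 0 to 4 lower, and a members' median of 0.046 (without Esr2-KO 2) to 0.15. Over these 4 omissions the sign turned at least once for 8 members. Tpp1 ran from -0.051 to 0.10, Gusb from -0.034 to 0.15, Hexa from -0.10 to 0.079, Neu1 from -0.40 to 0.096, Lipa from -0.22 to 0.019, Npc1 from -0.042 to 0.23, Psap from -0.10 to 0.15 and Atp6v1a from -0.12 to 0.061. The sign held in all 12 alternatives for 26 of the 41 members, and 7 of the 15 others turned under library totals alone. Leaving out 1 library moved 29 members by over 1.5 times and not the 12 others, Tfeb, Scarb2, Ctsk, Ctsz, Gaa, Gla, Glb1, Idua, Manba, Man2b1, Npc2 and Ppt1. The highest counts of called members and of other pathway genes all came without Esr2-KO 1, where the most genes were called among all genes as well. These counts thus do not set the members apart. With a lone library left in a group, its spread was taken to be that of the other group.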
